A study of Homo sapiens with 6 samples.

Results

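The genes described here are the 146 zinc finger genes of chromosome 19 with a measurable signal in 1205Lu melanoma cells and 2 drug-resistant derivatives. They were selected on their symbol (the letters ZNF followed by a number), their class (protein-coding, by GENCODE v44 on GRCh38), their chromosome, and a mean of at least 30 over the 6 libraries in the deposited values. These criteria kept 146 of the 249 such genes of chromosome 19, out of 60617 gene IDs in all. The mean over all libraries was therefore used to choose the genes, and levels near it are given only as a description. RNA-seq was performed on PBRT16 cells kept in 500 nM PLX8394, PBRT15 cells kept in 500 nM PLX8394, and 1205Lu TR parental cells given DMSO, with 2 libraries each. 1205Lu is a human melanoma cell line, and PLX8394 is a BRAF inhibitor of the paradox breaker type. PBRT15 and PBRT16 are resistant cell lines derived from 1205Lu tumors that had become resistant to a paradox breaker. Each was measured only in drug, so that line and drug cannot be told apart against the parental cells. Whether the 2 libraries of each line were separate cultures is not stated, and p-values therefore cover only the scatter of these libraries, possibly technical.

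Most zinc finger genes of chromosome 19 encode DNA-binding proteins of the C2H2 type, and many carry a KRAB domain at their start. KRAB zinc finger proteins recruit the corepressor TRIM28, which in turn brings the histone methyltransferase SETDB1 and HP1 proteins, and they are best known for silencing transposable elements. The genes arose largely by tandem duplication and lie in clusters on both arms of the chromosome, where related copies are neighbors.

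The total signal per library was 27877963 to 29580752. The melanoma identity of the lines rested on few markers. The proteoglycan gene CSPG4 had values of 5398 and 6111 in PBRT16 cells, 2067 and 2272 in PBRT15 cells and 3425 and 3434 in parental cells, whereas the pigmentation genes TYR, MLANA, PMEL and DCT were at 0 to 29.4 in every library. MITF, the transcription factor of the melanocyte lineage, was at 2210 and 2159 in PBRT16 cells, 823 and 927 in PBRT15 cells and 109 and 113 in parental cells. SOX10 and S100B, which mark the neural crest lineage, were at 0 to 1.67 in the resistant lines and at 4103 to 10992 in parental cells. Of 3 immune markers, PTPRC and CD3E were at 0 to 2.72 in all libraries, whereas CD68, a lysosomal protein of macrophages that other cells also make, was at 2146 and 3118 in PBRT16 cells, 2722 and 2194 in PBRT15 cells and 819 and 1260 in parental cells. The summed level of 5 fibroblast markers, on the other hand, was 18748 and 25068 in PBRT16 cells, 78057 and 85489 in PBRT15 cells and 6888 and 5984 in parental cells, most of it COL1A1 in the resistant lines, and its part in the results below was not tested. The 5 markers did not move together. COL1A1, DCN and PDGFRB were higher in both resistant lines than in parental cells, and LUM was at 0 to 4.12 in every library. PDGFRA was higher in PBRT15 cells (14242 and 14763) but lower in PBRT16 cells (3324 and 4339) than in parental cells (6708 and 5673). In bulk RNA, fewer cells of a type and less RNA per cell cannot be told apart.

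Mean values of the 146 genes ran from 32.5 to 4156 with a median of 169, and per kb of exon sequence from 3.37 to 1003 with a median of 29.5. The highest level per kb belonged to ZNF146 (1003 per kb), a protein made almost entirely of zinc fingers, with no KRAB domain. It was followed at a distance by ZNF302 (169.7 per kb), ZNF358 (169.4 per kb), ZNF260 (162.3 per kb) and ZNF317 (162.2 per kb). At the lower end, ZNF524 (mean 32.5) and ZNF850 (33.6) were just inside the threshold, whereas ZNF829 (29.0) and ZNF404 (27.9) were just outside it. Of the 146 genes, 20 had at least 1 group mean under 30. These 20 could pass only through the lines in which they were high, so that a difference was partly fixed by the selection. Their values and fold changes are therefore given as a description with no test, and counts are also given for the other 126. Of the 103 zinc finger genes below the threshold, 27 were at 0 in all libraries.

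Sequence similarity left most of these genes measurable. Over windows of 1 read length, the median gene shared 0% of its transcript sequence with transcripts of other genes, 115 of the 146 shared under 5%, and ZNF564, ZNF490, ZNF284 and ZNF223 shared over 40%. Values of these 4 genes are uncertain, since reads could have been divided between copies. Of all 146 genes, 76 overlapped a gene on the other strand, and since the sources used here do not give the strand setting of the counting, reads of such partners may not be separated.

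ZNF100, ZNF567 and ZNF829 were chosen by the values described here, as genes that moved in opposite directions in the resistant lines, so their values are a description with no test. All encode KRAB zinc finger proteins. ZNF100, on 19p (chr19:21722771-21767579 of GRCh38, minus strand), had values of 138.0 and 138.1 in PBRT16 cells, 0 and 0 in PBRT15 cells, and 1.85 and 3.21 in parental cells. The parental libraries were thus near 0 themselves, and the contrast lay between an active gene in PBRT16 cells and an almost silent one elsewhere. ZNF567, on 19q (chr19:36687612-36727701, plus strand), had values of 58.3 and 69.2 in PBRT16 cells, 0 and 0 in PBRT15 cells, and 2.53 and 2.19 in parental cells. ZNF829, further along the same cluster (chr19:36888124-36916291, minus strand), had values of 59.2 and 101.7 in PBRT16 cells, 0 and 0 in PBRT15 cells, and 7.92 and 5.04 in parental cells. For each of these genes no group overlapped another, PBRT16 cells were highest and PBRT15 cells were listed at 0. ZNF567 and ZNF829, with means of 22.0 and 29.0, did not reach the mean of 30, so that ZNF100 was the only one of them among the 146 genes. By the same criteria (no overlap with parental libraries on either side and at least a 2-fold difference of means each way), 5 zinc finger genes of chromosome 19 qualified, the others being ZNF442 and ZNF568. Of the 181 tested zinc finger genes of chromosome 19 these were 2.76%, against 0.55% of all tested genes (0.365% of those with a mean of at least 30 and 1.44% of those below it), and the choice of ZNF100, ZNF567 and ZNF829 by this pattern leaves nothing to be read from that share. In all 5, PBRT16 cells were above and PBRT15 cells below parental cells. ZNF442 had 1.45 and 1.36 in parental cells against 0 and 0 in PBRT15 cells, and ZNF568 had 4.14 and 10.97 against 1.37 and 0. The lower side of the pattern was thus a difference between low values in each of the 5 genes, and any parental signal exceeds a value of 0 by 2-fold.

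**Figure D1:**
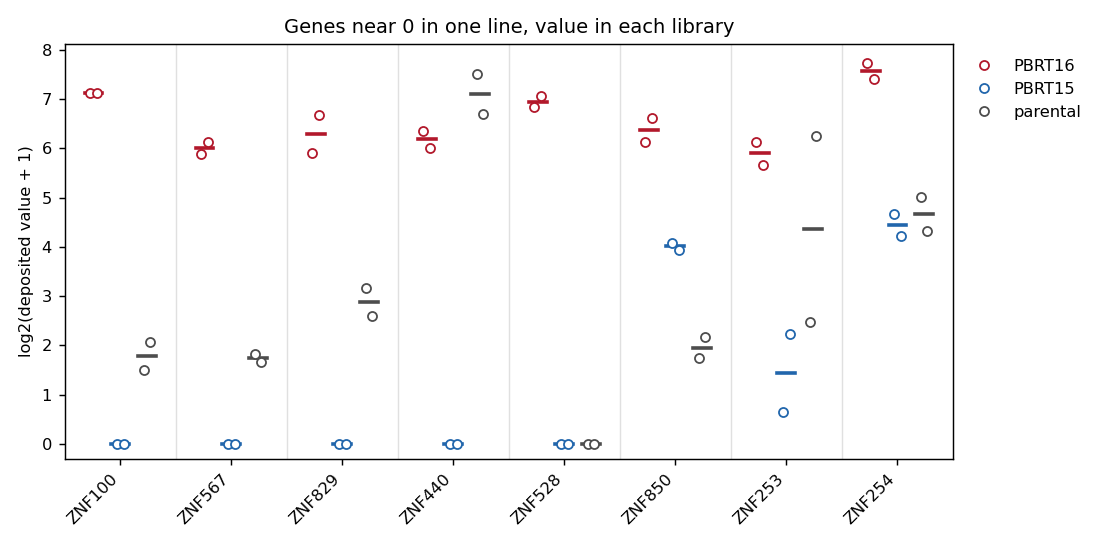
Values of 8 chromosome 19 zinc finger genes in each library, as log2(deposited value + 1), for PBRT16 (red), PBRT15 (blue) and parental cells (gray); circles are libraries and bars are means of the 2 libraries. ZNF100, ZNF567 and ZNF829 sit between 58.3 and 138.1 in PBRT16 cells, at 0 in PBRT15 cells and between 1.85 and 7.92 in parental cells.

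The promoters of ZNF100, ZNF567 and ZNF829, and of ZNF440 and ZNF528, the silent genes among the 146 that were listed at 0 in both libraries of a line, are given here, since CpG sites are where DNA methylation can act, although methylation was not measured here. Each run holds 250 bases before and 50 bases after the RefSeq transcription start (GRCh38.p14) that coincides with the GENCODE gene start, written 5′ to 3′ in gene direction, with CpG dinucleotides in capitals. The regions are chr19:21767530-21767829 (minus strand) for ZNF100, chr19:36687362-36687661 (plus) for ZNF567, chr19:36916242-36916541 (minus) for ZNF829, chr19:11814023-11814322 (plus) for ZNF440 and chr19:52397599-52397898 (plus) for ZNF528.
ZNF100: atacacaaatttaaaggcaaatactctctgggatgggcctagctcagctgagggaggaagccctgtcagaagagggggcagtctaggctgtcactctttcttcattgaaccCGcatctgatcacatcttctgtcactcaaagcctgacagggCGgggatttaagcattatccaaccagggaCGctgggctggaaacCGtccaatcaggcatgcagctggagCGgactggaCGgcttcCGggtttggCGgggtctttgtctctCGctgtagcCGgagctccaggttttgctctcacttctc
ZNF567: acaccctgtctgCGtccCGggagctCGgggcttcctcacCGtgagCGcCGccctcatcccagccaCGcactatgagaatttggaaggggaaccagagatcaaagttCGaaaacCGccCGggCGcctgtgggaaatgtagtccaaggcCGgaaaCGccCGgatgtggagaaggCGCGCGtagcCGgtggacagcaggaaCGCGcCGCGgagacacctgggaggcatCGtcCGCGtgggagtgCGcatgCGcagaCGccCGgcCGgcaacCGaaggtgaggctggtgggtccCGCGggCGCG
ZNF829: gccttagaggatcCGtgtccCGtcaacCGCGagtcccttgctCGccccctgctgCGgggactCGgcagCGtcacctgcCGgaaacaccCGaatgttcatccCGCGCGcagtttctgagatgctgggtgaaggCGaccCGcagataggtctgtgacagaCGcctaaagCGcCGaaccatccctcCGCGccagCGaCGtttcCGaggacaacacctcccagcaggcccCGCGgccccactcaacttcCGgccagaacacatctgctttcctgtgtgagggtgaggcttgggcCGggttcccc
ZNF440: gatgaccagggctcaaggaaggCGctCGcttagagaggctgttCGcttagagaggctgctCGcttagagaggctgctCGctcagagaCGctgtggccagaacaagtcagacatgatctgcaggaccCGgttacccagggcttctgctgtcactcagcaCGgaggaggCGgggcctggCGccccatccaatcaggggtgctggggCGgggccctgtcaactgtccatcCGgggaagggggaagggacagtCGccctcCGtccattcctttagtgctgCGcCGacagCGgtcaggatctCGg
ZNF528: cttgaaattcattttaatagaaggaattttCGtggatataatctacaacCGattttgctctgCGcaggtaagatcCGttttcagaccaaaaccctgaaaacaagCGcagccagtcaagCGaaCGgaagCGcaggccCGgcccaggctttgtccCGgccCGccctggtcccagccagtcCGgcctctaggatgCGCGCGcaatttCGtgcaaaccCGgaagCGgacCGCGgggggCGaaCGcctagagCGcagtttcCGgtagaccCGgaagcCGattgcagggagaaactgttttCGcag
The ZNF100 window held 10 CpG sites, that of ZNF440 held 18, those of ZNF829 and ZNF528 held 27 each, and that of ZNF567 held 35. Among the 131 of the 146 genes with a RefSeq promoter, the count ran from 6 to 40 with a median of 22, against a median of 27 over the 9886 promoters of protein-coding genes with a mean of at least 30 and 14 over all 35116 RefSeq promoters. The windows of these 5 genes thus ran from 10 to 35 CpG sites.

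Silence in a line was taken as a value under 5 in both of its libraries while both libraries of another line were at 30 or more, and it was met by 5 of the 146 genes, against 2.08% of all tested genes with a mean of at least 30. The 5 genes are described without a test because these values chose them. ZNF528 in 19q (chr19:52397849-52418412, plus strand) had values of 112.8 and 133.6 in PBRT16 cells and was listed at 0 in all 4 libraries of PBRT15 and parental cells. ZNF440 on 19p (chr19:11814273-11835216, plus strand) went the other way with respect to the parental cells, with 81.3 and 63.8 in PBRT16 cells, 0 and 0 in PBRT15 cells, and 181.8 and 102.1 in parental cells. Both encode KRAB zinc finger proteins, and in both no library of a silent line had any signal. ZNF850, a 19q gene that overlaps ZNF567 on the opposite strand, had values of 69.1 and 96.5 in PBRT16 cells, 16.0 and 14.4 in PBRT15 cells, and 2.33 and 3.51 in parental cells. The 3 groups of ZNF850 did not overlap, and its order (parental lowest) differed from that of ZNF567, which was lowest in PBRT15 cells. ZNF253 had values of 69.0 and 49.8 in PBRT16 cells, 0.574 and 3.68 in PBRT15 cells, and 4.53 and 74.97 in parental cells. The 2 parental libraries of ZNF253 stood apart from each other and spanned the other groups, so no statement on parental cells rests on it. ZNF100 was the remaining silent gene.

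A further 12 zinc finger genes of chromosome 19 met the silence criterion below the mean of 30, ZNF567 and ZNF829 among them. They were 12 of the 35 tested ones below that mean (34.3%), against 6.05% of all tested genes below it, and over both classes 17 of 181 (9.39%), against 2.76% of all tested genes. ZNF100, ZNF567 and ZNF829 are among the 17 and were chosen by these values, so nothing is read from these shares. In cluster 2 of 19p, ZNF799 had values of 13.1 and 6.24 in PBRT16 cells, 1.13 and 0 in PBRT15 cells, and 83.8 and 51.6 in parental cells, and ZNF443 and ZNF709 followed the same order of lines. ZNF709 shared 79.2% of its transcript sequence with other genes, so its values are uncertain. ZNF441, a neighbor of ZNF440, had 32.6 and 37.7 in PBRT16 cells and was listed at 0 in PBRT15 and parental cells. In cluster 3 of 19p, ZNF257 had values of 60.4 and 84.6 in PBRT16 cells, 0 and 0.588 in PBRT15 cells, and 0 and 0 in parental cells, and ZNF43 and ZNF90 were likewise near 0 outside PBRT16 cells. ZNF14 was the only silent gene that PBRT16 cells lacked, with 0 and 0 in PBRT16 cells, 17.2 and 21.9 in PBRT15 cells, and 64.4 and 41.7 in parental cells. Of the 17 silent genes, 12 lay in clusters 2 and 3 of 19p, 3 in cluster 5 and 2 in cluster 7 of 19q. Of the 249 zinc finger genes of chromosome 19, clusters 2 and 3 held 26 and 37, cluster 5 held 26 and cluster 7 held 40. Their values chose the 17 genes, so nothing is read from where they lie.

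In PBRT15 cells against parental cells, 35 of the 146 genes rose and 14 fell (limma on log2(value + 1), adjusted p at most 0.05), or 27 and 10 of the 126 genes with every group mean at least 30. Over all 16560 tested genes, 21.6% rose and 19.5% fell. The median over the 146 genes was 0.27 on the log2 scale, against -0.01 over all tested genes. ZNF114 had values of 57.4 and 68.7 in PBRT15 cells against 6.40 and 3.75 in parental cells (log2 fold change 3.43). ZNF585A had 183.1 and 261.8 in PBRT15 cells against 15.0 and 38.2 in parental cells (3.14). Neither gene's groups overlapped, and both were among the 20 genes with a group mean under 30, as were ZNF350 and ZNF524. On 19q, ZNF350, whose product (also called ZBRK1) is a repressor that binds BRCA1, had 148.0 and 191.4 in PBRT15 cells against 11.6 and 29.0 in parental cells (3.12), and ZNF524 had 44.4 and 61.8 against 13.5 and 6.78 (2.33). ZNF615, the neighbor of ZNF350 and above 30 in each line, had 177.0 and 198.6 in PBRT15 cells against 38.0 and 41.6 in parental cells (2.21 ± 0.31 (SE), adjusted p = 0.0057). ZNF274, which binds the 3′ ends of zinc finger genes and recruits SETDB1 there, rose by 1.09 ± 0.25 (adjusted p = 0.025). ZNF473, which takes part in histone pre-mRNA processing, rose by 0.46 ± 0.12 (adjusted p = 0.034). Leaving out single libraries ended the calls of ZNF274 (4 of the 6 libraries, adjusted p up to 0.101) and ZNF473 (any 1 library, up to 0.122).

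Besides the silent genes ZNF440 and ZNF100, the largest falls in PBRT15 cells were those of ZNF121, ZNF823 and ZNF28. ZNF121 had values of 464.5 and 497.4 in PBRT15 cells against 1610 and 1504 in parental cells (log2 fold change -1.69 ± 0.12 (SE), adjusted p = 0.00087). ZNF28 had 102.9 and 117.2 in PBRT15 cells against 262.1 and 368.7 in parental cells (-1.49 ± 0.23, adjusted p = 0.0076), and ZNF823, with a PBRT15 mean under 30, had 31.6 and 16.1 against 58.3 and 76.4 (-1.52). In each of these genes both PBRT15 libraries were below both parental libraries. The calls were sensitive to single libraries. Each count below is of all genes called in that refit, some of which were not called with the 6 libraries. Leaving out PBRT15 replicate 2, parental replicate 1 or parental replicate 2 left 17, 21 and 23 genes that rose, and leaving out PBRT15 replicate 1, parental replicate 1 or parental replicate 2 left 8, 7 and 8 that fell.

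**Figure D2:**
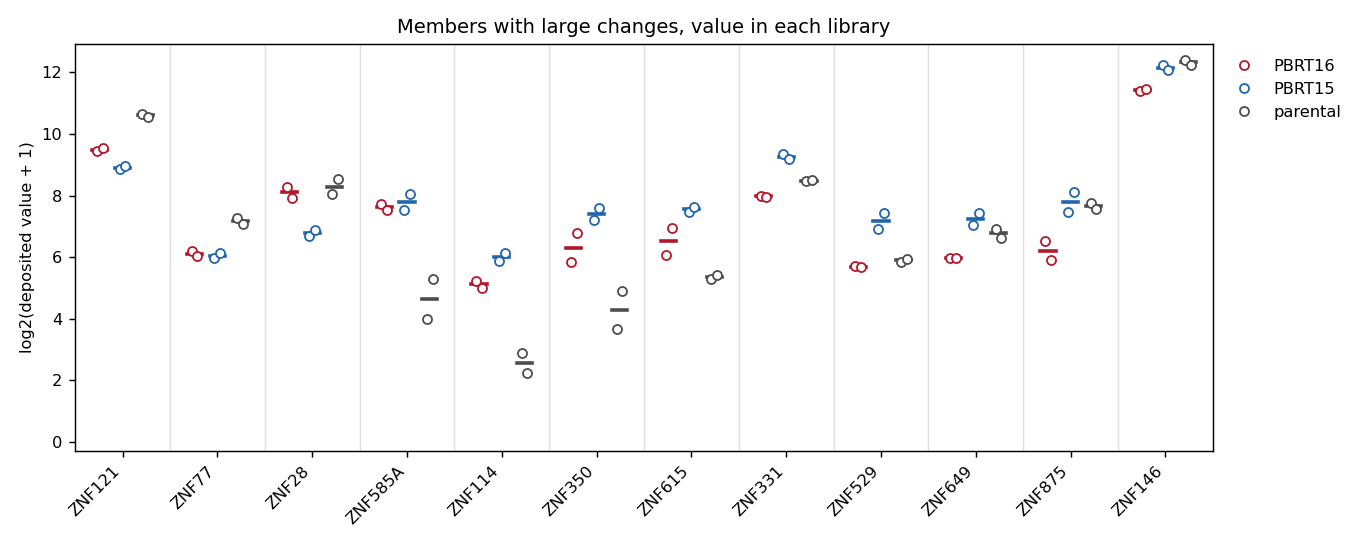
Values of 12 of the 146 genes in each library, as log2(deposited value + 1), for PBRT16 (red), PBRT15 (blue) and parental cells (gray); circles are libraries and bars are means of the 2 libraries. ZNF121 and ZNF77 are lower in both resistant lines than in parental cells, ZNF585A and ZNF114 are higher in both, and ZNF331 is highest in PBRT15 cells (655.4 and 577.3) and lowest in PBRT16 cells (254.0 and 248.4).

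In PBRT16 cells against the same parental libraries, 23 of the 146 genes rose and 20 fell, or 13 and 20 of the 126 genes with every group mean at least 30. Over all tested genes, 21.1% rose and 19% fell, and the median over the 146 genes was -0.12. Besides the silent genes ZNF528, ZNF100 and ZNF850, the largest rises were those of ZNF585A and ZNF254. ZNF585A had values of 213.0 and 183.4 in PBRT16 cells against 15.0 and 38.2 in parental cells (log2 fold change 2.99). ZNF254, the last gene of the 19p cluster next to the centromere, had 211.7 and 169.5 in PBRT16 cells against 31.1 and 18.9 in parental cells (2.91). The groups of both genes stood clear of each other, and both genes had a parental mean under 30. ZNF875 had 90.0 and 59.4 in PBRT16 cells against 215.0 and 190.2 in parental cells (-1.45 ± 0.31 (SE), adjusted p = 0.019). ZNF121 had 694.1 and 748.0 against 1610 and 1504 (-1.11 ± 0.12, adjusted p = 0.0027). ZNF77 had 71.8 and 64.7 against 152.6 and 133.5 (-1.06 ± 0.14, adjusted p = 0.0052). Both PBRT16 libraries were below both parental libraries in these 3 genes, as they were in ZNF136 (93.4 and 95.5 against 237.4 and 169.4, -1.08 ± 0.32, adjusted p = 0.0498) and in ZNF566 (163.4 and 118.4 against 274.2 and 279.7, -0.99 ± 0.27, adjusted p = 0.040).

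ZNF91, a repressor of SVA and LINE-1 elements in human cells, was among the 19p genes that rose. It had values of 287.2 and 314.8 in PBRT16 cells against 85.2 and 68.8 in parental cells (log2 fold change 1.96 ± 0.20 (SE), adjusted p = 0.0023), and 262.0 and 345.3 in PBRT15 cells (1.96 ± 0.20 against the same parental libraries, adjusted p = 0.0022). Its cluster neighbor ZNF675, an inhibitor of TRAF6 signaling, had 166.5 and 186.8 in PBRT16 cells against 104.1 and 84.7 in parental cells (0.90 ± 0.15, adjusted p = 0.010). ZNF714 had 351.7 and 348.4 in PBRT16 cells against 110.2 and 124.5 in parental cells (1.57 ± 0.12, adjusted p = 0.0011). No group of these 3 genes overlapped the parental one. ZNF146, the gene with the highest level per kb, fell, with 2673 and 2816 in PBRT16 cells against 5468 and 4810 in parental cells (-0.90 ± 0.14, adjusted p = 0.0073), and it kept this call in every alternative of the limma fit that was run. It lies within the bounds of ZNF565 on the other strand. In the refits that follow, counts are of all genes called, including some not called with the 6 libraries. Leaving out PBRT16 replicate 1, PBRT16 replicate 2, parental replicate 1 or parental replicate 2 left 14, 12, 13 and 15 genes that rose and 8, 5, 4 and 12 that fell. ZNF136 and ZNF566 were lost without any 1 of these 4 libraries (adjusted p up to 0.198 and 0.158), and ZNF875 was lost without PBRT16 replicate 2 or either parental library (adjusted p up to 0.0991). ZNF675 was lost without PBRT16 replicate 2 (adjusted p = 0.058).

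In PBRT16 cells against PBRT15 cells, both kept in PLX8394, 8 of the 146 genes were higher and 22 were lower, or 2 and 22 of the 126 genes with every group mean at least 30. Over all tested genes, 7.51% were higher and 8.27% were lower. The median over the 146 genes was -0.35, against 0.00 over all tested genes. The 8 higher genes included the silent genes ZNF100, ZNF528, ZNF440 and ZNF850, and the other four were ZNF254, ZNF823, ZNF28 and ZNF121. ZNF254 had values of 211.7 and 169.5 in PBRT16 cells against 24.3 and 17.6 in PBRT15 cells (log2 fold change 3.13, a description, since its mean was above 30 in PBRT16 cells only). ZNF331, an imprinted gene of cluster 7, had 254.0 and 248.4 in PBRT16 cells against 655.4 and 577.3 in PBRT15 cells (-1.29 ± 0.12 (SE), adjusted p = 0.0065), with the parental libraries at 352.6 and 364.1 between them. ZNF529 had 51.2 and 49.99 in PBRT16 cells against 119.9 and 173.3 in PBRT15 cells (-1.49 ± 0.20, adjusted p = 0.015). In these 3 genes the lines did not overlap. ZNF649, a KRAB repressor, had 62.3 and 62.4 in PBRT16 cells against 131.3 and 170.4 in PBRT15 cells (-1.25 ± 0.19, adjusted p = 0.019). ZNF875 had 90.0 and 59.4 against 174.9 and 275.8 (-1.57 ± 0.31, adjusted p = 0.034), and ZNF324B had 69.2 and 76.2 against 124.6 and 167.3 (-0.98 ± 0.18, adjusted p = 0.029). These also did not overlap between the lines. ZNF146 had 2673 and 2816 in PBRT16 cells against 4873 and 4295 in PBRT15 cells (-0.74 ± 0.14, adjusted p = 0.030).

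The count of lower genes between the resistant lines rested on single libraries. Counts for a refit are of all genes it called, and not all of them were called with the 6 libraries. Leaving out either parental library left 7, leaving out PBRT15 replicate 1 left 5, and leaving out PBRT15 replicate 2 or either PBRT16 library left 2. ZNF529 was lost without either PBRT16 library (adjusted p up to 0.0783), ZNF649 without PBRT15 replicate 2 or either PBRT16 library (up to 0.0901), ZNF324B without any library other than PBRT15 replicate 1 (up to 0.125), and ZNF875 and ZNF146 without any 1 library (up to 0.130 and 0.127). Without the filter on low values 2 lower genes were left. ZNF331 kept its call in every alternative of the limma fit that was run.

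The arms of the chromosome differed in this comparison. Of the 39 genes on 19p, 5 were higher and 0 lower in PBRT16 cells than in PBRT15 cells, with a median log2 fold change of 0.07 and 17 of 39 below 0. At an unadjusted p of 0.05 in the same limma fit, 10 were higher and 1 was lower. Of the 5 higher genes, ZNF100, ZNF440, ZNF254 and ZNF823 had a group mean under 30. Their difference was partly fixed by the selection, so nothing is read from these 19p counts. Of the 107 genes on 19q, 3 were higher and 22 lower, with a median of -0.58 and 92 of 107 below 0. All 22 lower genes were thus on 19q. Among the 30 genes on 19p with every group mean at least 30, 1 was higher and 0 were lower, with a median of 0.00. Among the 96 such genes on 19q, 1 was higher and 22 were lower, with a median of -0.56. The shift was shared by the rest of the arm: the median over 311 other 19q genes was -0.54 with 281 below 0, over 335 other 19p genes it was -0.05, and over 210 zinc finger genes of other chromosomes it was -0.09. The per-library medians over the 19q genes, relative to the mean of PBRT15 cells, were -0.52 and -0.51 in PBRT16 cells against -0.11 and 0.11 in PBRT15 cells. The difference between the arm medians (19p minus 19q) was 0.65, and it was 0.58 to 0.72 when any 1 library was left out. The arms are described by counts and medians, with no test of one arm against the other.

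**Figure D3:**
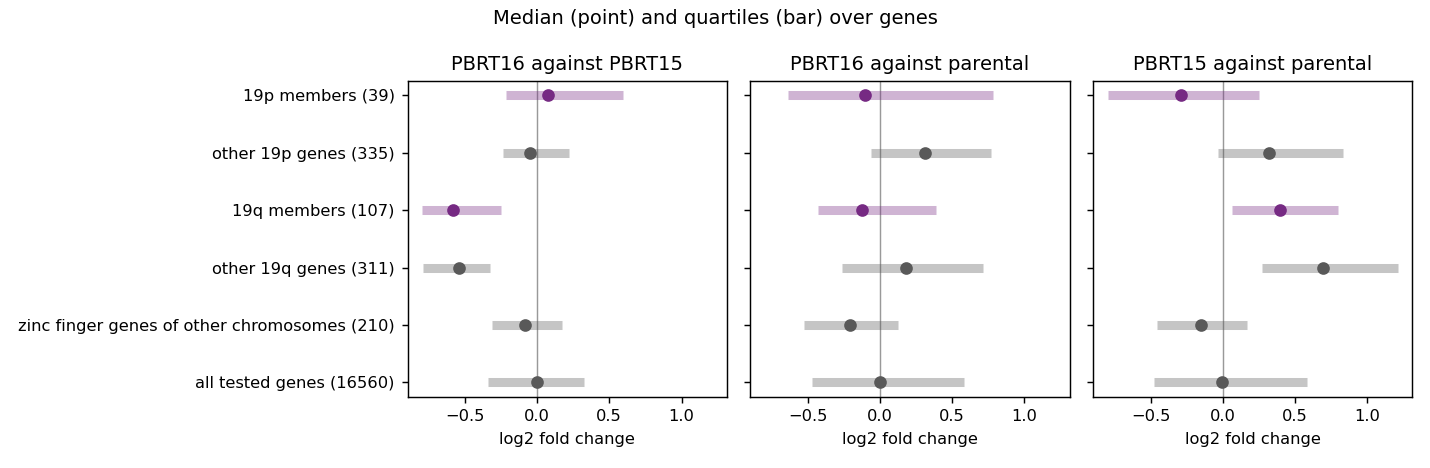
Median (point) and lower to upper quartile (bar) of the log2 fold change, on the log2(value + 1) scale, over the 39 genes of 19p and 107 of 19q (purple) and over comparison sets (gray), with the number of genes in brackets, for PBRT16 against PBRT15, PBRT16 against parental and PBRT15 against parental cells. Genes of 19q lie below 0 between the resistant lines, with medians of -0.58 for the zinc finger genes and -0.54 for the other genes of the arm.

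Against parental cells the arms behaved differently in the resistant lines. In PBRT15 cells, 30 of the 107 genes on 19q rose and 3 fell (median 0.39), whereas 5 of the 39 on 19p rose and 11 fell (median -0.29). Other 19q genes had a median of 0.69 and other 19p genes one of 0.32, so the 19p zinc finger genes were below 0 beside an arm whose other genes were above it. In PBRT16 cells, 15 rose and 13 fell on 19q (median -0.12), and 8 rose and 7 fell on 19p (median -0.10), with medians of 0.18 over other 19q genes and 0.31 over other 19p genes. Among genes with every group mean at least 30, 8 of 96 rose and 13 fell on 19q in PBRT16 cells (median -0.16). On 19p, 5 of 30 rose and 7 fell (median -0.40). In PBRT15 cells, 24 of these rose and 3 fell on 19q (median 0.34), and 3 rose and 7 fell on 19p (median -0.24). Arm medians in PBRT16 cells thus moved apart once genes with a low group mean were left out. Over all genes of each arm, the difference of medians in PBRT16 cells, 0.02, had no stable sign. It was -0.18 without parental replicate 1 and -0.08 without PBRT16 replicate 1. On 19p itself the clusters differed. The 26 genes outside cluster 3 had medians of -0.45 in PBRT16 cells and -0.48 in PBRT15 cells against parental cells, whereas zinc finger genes of other chromosomes had medians of -0.21 in PBRT16 cells and -0.15 in PBRT15 cells. Some of the 26, ZNF440 and ZNF823 among them, had a group mean under 30, so that their differences were partly fixed by the selection. Without such genes, the medians of cluster 1 (10 genes) were -0.40 in PBRT16 cells and -0.37 in PBRT15 cells. Those of cluster 2 (6 genes) were -0.49 and -0.50.

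The genes fell into 8 clusters of at least 5, defined as runs with neighboring starts at most 1 Mb apart. Cluster 3 on 19p (19.67 to 24.13 Mb, 13 of the 146 genes) had 7 of 13 genes that rose and 1 that fell in PBRT16 cells against parental cells, with a median of 1.54, and 4 that rose and 1 that fell in PBRT15 cells, with a median of 0.32. Over its 9 genes with every group mean at least 30, 4 rose and 1 fell in PBRT16 cells (median 0.60), and 3 rose in PBRT15 cells (median 0.54). The genes that rose in PBRT16 cells were ZNF66, ZNF714, ZNF493, ZNF100, ZNF91, ZNF675 and ZNF254, and ZNF101 fell. ZNF493 had values of 96.2 and 164.3 in PBRT16 cells against 37.6 and 24.1 in parental cells (log2 fold change 2.03 ± 0.41 (SE), adjusted p = 0.018), and its lines did not overlap, but the call was lost without PBRT16 replicate 2 or either parental library (adjusted p up to 0.0864). Cluster 2 (11.48 to 12.64 Mb, 9 genes) had 0 that rose in either line, with 1 that fell in PBRT16 cells (median -0.46) and 5 that fell in PBRT15 cells (median -0.81). At an unadjusted p of 0.05 in the limma fit, still 0 of the 9 rose, and 3 fell in PBRT16 cells and 6 in PBRT15 cells. Over its 6 genes with every group mean at least 30, 1 fell in PBRT16 cells (median -0.49) and 2 fell in PBRT15 cells (median -0.50). Cluster 1 (7.07 to 9.79 Mb, 12 genes) had 1 that rose and 3 that fell in each line. On 19q, 6 of the 20 genes of cluster 7 (51.57 to 53.58 Mb) rose and 2 fell in PBRT16 cells, and 8 rose and 1 fell in PBRT15 cells. In cluster 8 (55.48 to 58.48 Mb, 45 genes) 5 rose and 2 fell in PBRT16 cells, and 13 rose and 1 fell in PBRT15 cells. Cluster 5 (10 genes) had 2 that rose and 4 that fell in PBRT16 cells, and 3 and 0 in PBRT15 cells. Cluster 6 (18 genes) had 1 and 2 in PBRT16 cells, and 2 and 1 in PBRT15 cells. In cluster 4 (5 genes) 0 rose and 0 fell in either line. Over genes with every group mean at least 30, 4 of 17 in cluster 7 and 3 of 41 in cluster 8 rose in PBRT16 cells, and 6 of 17 and 12 of 41 in PBRT15 cells. In cluster 5, 0 of 8 such genes rose and 4 fell in PBRT16 cells, and 1 rose and 0 fell in PBRT15 cells. In cluster 1, 1 of 10 such genes rose and 3 fell in PBRT16 cells, and 0 rose and 3 fell in PBRT15 cells. The shares of all tested genes that rose and fell were 21.1% and 19% in PBRT16 cells, and 21.6% and 19.5% in PBRT15 cells. Neighbors within a cluster did not all move together: ZNF613 and ZNF615, which lie on either side of ZNF350 in cluster 7, rose in PBRT15 cells, whereas the next gene, ZNF614, had 347.6 and 410.9 in PBRT15 cells against 341.8 and 316.7 in parental cells and did not pass (0.20 ± 0.13, adjusted p = 0.29).

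**Figure D4:**
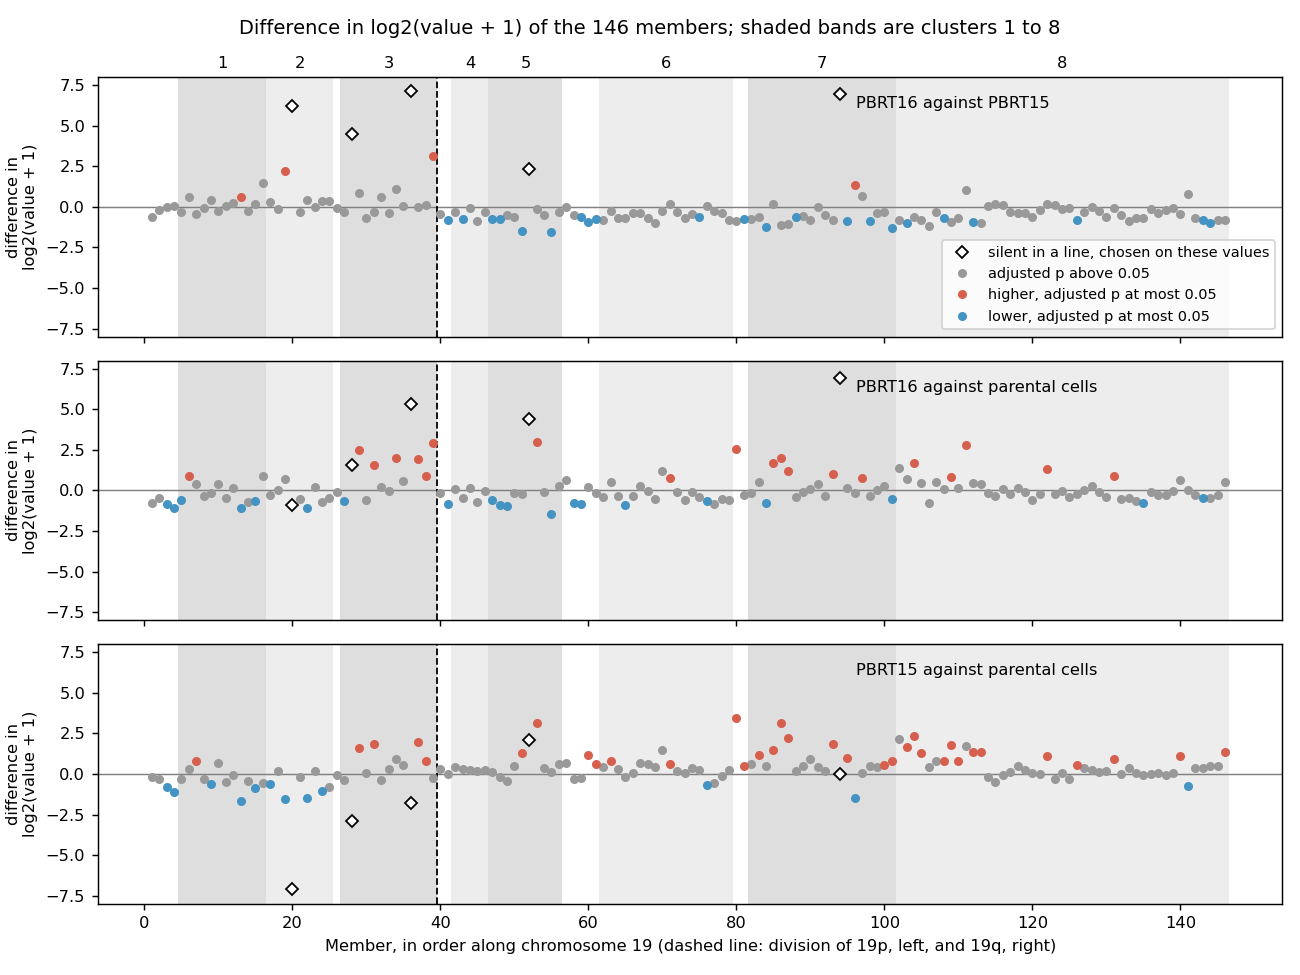
Fitted difference in log2(value + 1) of each of the 146 genes, in order along chromosome 19 with 19p left and 19q right of the dashed line, for PBRT16 against PBRT15 (top), PBRT16 against parental (middle) and PBRT15 against parental cells (bottom). Red and blue points passed an adjusted p of 0.05, gray points did not, open diamonds are the 5 silent genes, and shaded bands are clusters 1 to 8. In the top panel the 22 lower genes all lie on 19q.

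A wider criterion of opposite movement leaves out the 2-fold difference of means. In 23 of the 146 genes (15.8%) both libraries of one resistant line lay above, and both of the other below, both parental libraries, against 6.56% of all tested genes. The comparisons share the parental libraries. No such share was taken over other genes of 19q, the arm where most of the 23 lie. Other 19q genes had a median of -0.54 between the lines, with 281 of 311 below 0. The share is therefore not read as particular to zinc finger genes. In 19 of the 23, all on 19q, PBRT16 cells were below and PBRT15 cells above parental cells, ZNF331 and ZNF529 among them. In the other four, ZNF426, ZNF823, ZNF431 and ZNF100, all on 19p, PBRT16 cells were above and PBRT15 cells below. Besides ZNF100, which its opposite values chose, ZNF331 was the only one of the 146 genes that passed the test in opposite directions, falling in PBRT16 cells (-0.51 ± 0.12 (SE), adjusted p = 0.027) and rising in PBRT15 cells (0.78 ± 0.12, adjusted p = 0.0080). The fall in PBRT16 cells was lost without any 1 of the PBRT16 or parental libraries (adjusted p up to 0.113).

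The repressor machinery that KRAB proteins use was examined with a list of 31 cofactor and silencing genes, all of which were tested. In PBRT16 cells against parental cells, 2 rose and 11 fell, in PBRT15 cells 4 rose and 6 fell, and between PBRT16 and PBRT15 cells 1 was higher and 3 were lower, beside the percentages of all tested genes given above. TRIM28, the corepressor itself, had values of 6167 and 5748 in PBRT16 cells, 9926 and 8839 in PBRT15 cells, and 6055 and 7047 in parental cells. It was lower in PBRT16 cells than in PBRT15 cells (log2 fold change -0.65 ± 0.14 (SE), adjusted p = 0.042) and rose in PBRT15 cells (0.52 ± 0.14, adjusted p = 0.039). TRIM28 lies on 19q with the zinc finger genes. Other 19q genes had a median of -0.54 between the lines and 0.69 in PBRT15 cells against parental cells. The part of that shift in the TRIM28 values was not tested. The other cofactors that were lower between the lines, CBX5 and PPHLN1, lie on chromosome 12. Both TRIM28 calls were lost when any 1 library was left out (adjusted p up to 0.170 and 0.144). SETDB1, which methylates histone H3 at TRIM28 targets, had 953.0 and 796.3 in PBRT16 cells, 1361 and 1239 in PBRT15 cells, and 1589 and 1461 in parental cells, and fell in PBRT16 cells (-0.81 ± 0.15, adjusted p = 0.012). CBX5, an HP1 protein, had 4125 and 4333 in PBRT16 cells, 7005 and 6844 in PBRT15 cells, and 6727 and 6533 in parental cells, and fell in PBRT16 cells (-0.65 ± 0.11, adjusted p = 0.0099). The HUSH complex genes and MORC2 moved unevenly. MPHOSPH8, of that complex, passed in neither line (-0.26 ± 0.17, adjusted p = 0.28 in PBRT16 cells, and -0.47 ± 0.17, adjusted p = 0.087 in PBRT15 cells). TASOR and MORC2 fell in both lines, while PPHLN1 (periphilin) had 742.9 and 709.2 in PBRT16 cells, 1529 and 1513 in PBRT15 cells, and 951.5 and 889.1 in parental cells, rose in PBRT15 cells (0.72 ± 0.11, adjusted p = 0.0078) and was lower in PBRT16 cells than in PBRT15 cells (-1.07 ± 0.11, adjusted p = 0.0082). Among DNA methylation genes, TET1, a demethylating dioxygenase, had 283.4 and 336.6 in PBRT16 cells, 184.5 and 199.6 in PBRT15 cells, and 146.5 and 131.3 in parental cells, and rose in PBRT16 cells (1.15 ± 0.14, adjusted p = 0.0044). DNMT1, the maintenance methyltransferase, fell in PBRT16 cells (-0.72 ± 0.16, adjusted p = 0.022), and its partner UHRF1 rose in PBRT15 cells (0.90 ± 0.14, adjusted p = 0.0084). DNMT3B rose in PBRT15 cells (0.83 ± 0.14, adjusted p = 0.011), TET3 fell there (-0.64 ± 0.11, adjusted p = 0.011) and DNMT3A fell in PBRT16 cells (-0.62 ± 0.16, adjusted p = 0.034). Of the remaining called cofactors, CHD4, HDAC2, KDM4A, SMARCAD1 and SUV39H2 fell in PBRT16 cells and KDM4B rose there. CBX3, HDAC2 and SMARCAD1 fell in PBRT15 cells. Each call from DNMT3B onward was lost when some single library was left out. SETDB1, CBX5 and DNMT1 in PBRT16 cells were each lost without parental replicate 1 and without 1 or more of the others (adjusted p up to 0.0670, 0.0556 and 0.100), and PPHLN1 between the lines without PBRT16 replicate 2 (0.0523). TASOR was lost in PBRT16 cells without PBRT16 replicate 2 or parental replicate 1 (adjusted p up to 0.0593) and in PBRT15 cells without any 1 of the PBRT15 or parental libraries (up to 0.109). MORC2 was lost in each line without replicate 1 of that line or either parental library (up to 0.0700 in PBRT16 cells and 0.0833 in PBRT15 cells). Leaving out 1 library left 1 to 12 calls in PBRT16 cells and 2 to 7 in PBRT15 cells.

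Promoter sequence, which the selection had not used, was searched for 2 motifs. The letters CCGGAAG, the core that ETS family factors bind, were found on either strand in 61 of the 131 promoters (46.6%), against 19.7% of promoters of protein-coding genes with a mean of at least 30 and 10.3% of all RefSeq promoters of the same length. GGGCGG, a GC box, was found on either strand in 62.6% of the 131, against 71.8% and 44.95%. Both motifs hold a CpG, and a match of one can share end bases with a match of the other. A match is a description of the sequence and not of a factor bound there. Since the genes arose largely by tandem duplication, the 131 promoters are not independent sequences. No share was taken over zinc finger genes of chromosome 19 below the mean of 30, so the motif cannot be tied to expression. The ZNF100, ZNF829 and ZNF528 windows printed above held CCGGAAG, and those of ZNF567 and ZNF440 did not.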

How the data were processed

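RNA-seq libraries were made from 2 samples each of PBRT16, PBRT15 and parental cells with a stranded mRNA kit. Per the paper's methods, RSEM (GRCh38, GENCODE) and DESeq2 were used by the authors, and the submitters' processing notes add STAR 2.6.1a and Picard. Each deposited file holds a normalized signal for every gene in place of whole counts. How it was normalized is not stated in the sources used here, so depth per gene is unknown and no count-based test was run. The planned test for this unit, limma 3.58.1 in R 4.3.3 on log2(value + 1), was fitted to 3 groups and 6 libraries. Fold changes are on that scale, which understates those of low genes. The filter kept genes whose value, scaled to library totals, reached 10 in 2 or more libraries, with a sum of 15 or more (16560 of 60617 gene IDs; all 146 genes passed), and p-values were adjusted by Benjamini-Hochberg over them. An adjusted p of 0.05 or less counted as a rise or a fall.

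IDs were matched to GENCODE v44 without their version (60357 matched), and 45 pseudoautosomal copies were dropped. Arms were divided at 26 Mb. RefSeq promoters (GRCh38.p14) were taken at the start nearest to the GENCODE gene start, which lay within 100 bases for 102 of 131 genes. Genes named with values were those chosen by the selection, those silent in a line, the 5 largest rises and falls of each comparison, the 5 highest per kb, those next to the threshold, their cluster neighbors and some of the called cofactors. ZNF91, ZNF675, ZNF274 and ZNF473 were added for their known roles after their values were seen. Alternatives were pseudocounts of 0.5 and 5, other filters and scalings, a fit of 4 libraries, a prior spread that follows expression, a fold of at least 2, leaving out each library, and a replicate block. A count given for an alternative is of all genes it called, which need not be among those of the main fit. The fit was tested on simulated data. The genes and lists were chosen with earlier results of these data known.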

Additional observations from a re-analysis of the deposited data

Results flagged for a closer look

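Between PBRT16 and PBRT15 cells, the limma test of the difference passed for several zinc finger genes, among them the following. The log2 fold change was -0.74 for ZNF146, -0.98 for ZNF324B, -1.29 for ZNF331, -1.49 for ZNF529, -1.25 for ZNF649 and -1.57 for ZNF875. Among the KRAB cofactors it was 0.68 for TET1, -0.71 for CBX5, -1.07 for PPHLN1 and -0.65 for TRIM28. For ZNF254 it was 3.13, given as a description because only the PBRT16 mean was above 30. Several of these calls were lost when single libraries were left out, as given with the results. For TET1 the call was lost without any 1 library (adjusted p up to 0.160) and with the replicate block, and for CBX5 without any 1 of the 4 PBRT16 and PBRT15 libraries (up to 0.0971).

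ZNF100, ZNF567 and ZNF829 were above parental cells in both PBRT16 libraries (means 138.0, 63.8 and 80.4) and listed at 0 in both PBRT15 libraries, below parental cells. Their values chose these 3 genes, and no test is read from them. By the wider criterion without the 2-fold difference of means, 23 of the 146 genes lay on opposite sides in either direction, against 6.56% of all tested genes. In 19 of the 23, PBRT15 cells were above and PBRT16 cells below parental cells, the reverse of these 3 genes. The 19 lie on 19q, and no such share was taken over other genes of that arm. The pattern itself was not tested.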

How the results depend on the processing

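With 2 libraries a group, counts of calls moved with the settings more than the medians did. Without the filter on low values, 20 of the 146 genes rose and 7 fell in PBRT15 cells, 15 rose and 7 fell in PBRT16 cells, and 5 were higher and 2 lower in PBRT16 than in PBRT15 cells, and 4, 5 and 1 KRAB cofactors were called in PBRT15 cells, PBRT16 cells and between the lines. More genes are adjusted over in that setting. A fold of at least 2 left 23 and 8 in PBRT15 cells, 4 that fell in PBRT16 cells and 4 lower between the lines, with 0, 2 and 1 cofactors. A fit of the 4 libraries compared left 7 lower genes and 2 cofactors between the lines, the stricter filter gave 8 cofactors there and a spread that follows expression 11. The cause was not tested. Leaving out each library in turn, where the lone library of a line is assumed to vary like the others, gave 17 to 31 rises and 7 to 11 falls in PBRT15 cells, 12 to 20 and 4 to 17 in PBRT16 cells, 5 to 7 higher and 2 to 7 lower between the lines, and 2 to 7, 1 to 12 and 0 to 2 cofactors. The arm difference (median of 19p minus 19q) was -0.77 to -0.53 in PBRT15 cells, -0.18 to 0.13 in PBRT16 cells and 0.58 to 0.72 between the lines, and with a minimum mean of 100 it was -0.52 in PBRT15 cells and -0.00696 in PBRT16 cells, against 0.02 as reported. Silence under a value of 2 left 3 genes, ZNF440, ZNF100 and ZNF528. The replicate numbers did not pair the libraries (correlations of deviations 0.0183, 0.0386 and 0.136). With a replicate block 32 rose and 12 fell in PBRT15 cells, 24 and 14 in PBRT16 cells, and 6 were higher and 16 lower between the lines, with 2 cofactors there. Of 24 named results of genes with every group mean at least 30, 11 kept their call under all 16 alternative fits, 3 lost it only when a library was left out, 10 lost it under another alternative too, and 0 reversed. The cofactor alternatives were chosen after seeing the data.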
